A study of Mus musculus with 3 samples.

Results

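Vascular smooth muscle cells (vSMC) of the aged mouse thymus were taken from droplet single-cell RNA libraries by a gate on raw UMIs (unique molecular identifiers, 1 per counted transcript molecule). A called barcode was kept when it had more than 1000 genes, less than 20% of its UMIs from mitochondrial genes, at least 5 UMIs of Acta2, at least 2 UMIs of Myh11, and 0 UMIs of Pecam1, Epcam and Pdgfra, which mark endothelial, epithelial and fibroblast cells. Of the 14956 barcodes that passed the gene and mitochondrial limits, 697 met this rule, and 14259 did not. The members were thus chosen by the UMIs of these 5 genes in the same files, so the levels of these 5 genes describe the gate and are given with no test.

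The libraries held nonhematopoietic (CD45-) cells of thymi from untreated C57BL/6 mice aged 20 months, and each of the 3 libraries was the only one of its group (n = 1). The Foxn1Lin female and the Foxn1Lin male library came from the Foxn1 lineage trace, in which Cre driven by the epithelial gene Foxn1 switches on a tdTomato reporter at Rosa26, and the third library came from wild-type males without the reporter. The thymi of several mice were pooled per library, so the spread between animals cannot be seen. The protocol text shared by all 3 libraries speaks of female mice while the sex label of the last 2 is male, and the cell type label of the wild-type library adds PECAM1+ to CD45- while its title does not. Values of the 3 libraries are given in the order Foxn1Lin female, Foxn1Lin male and wild-type male throughout.

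Vascular smooth muscle forms the contractile wall of arteries, arterioles and larger veins. Its cells shorten when calcium activates myosin on filaments of smooth muscle actin, and the genes of this apparatus are switched on by serum response factor and its partner myocardin at short A/T-rich promoter elements called CArG boxes. Pericytes, the other mural cells, sit on capillaries and small venules, share Notch3, Pdgfrb and Rgs5 with vSMC, and carry little smooth muscle myosin. In the thymus these vessels bring in T cell progenitors and carry away mature T cells.

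The promoters of 4 contractile genes are given as the 250 bases before the gene start, from RefSeq on GRCm38.p6, 5′ to 3′ on the coding strand. Myl9, Cnn1 and Lmod1 belong to the contractile list, whose members moved together. Acta2 is a gene of the gate, so its level was set by the rule and not tested. Capitals mark the CArG box, which was searched on both strands as CC, then 6 bases that are each A or T, then GG.
Acta2, smooth muscle actin, chr19:34255374-34255623, minus strand: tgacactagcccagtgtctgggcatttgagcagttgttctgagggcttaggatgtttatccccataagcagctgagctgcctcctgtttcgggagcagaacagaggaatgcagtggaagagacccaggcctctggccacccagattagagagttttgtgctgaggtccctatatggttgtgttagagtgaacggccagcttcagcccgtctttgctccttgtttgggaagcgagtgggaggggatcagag
Myl9, smooth muscle myosin regulatory light chain, chr2:156775214-156775463, plus strand: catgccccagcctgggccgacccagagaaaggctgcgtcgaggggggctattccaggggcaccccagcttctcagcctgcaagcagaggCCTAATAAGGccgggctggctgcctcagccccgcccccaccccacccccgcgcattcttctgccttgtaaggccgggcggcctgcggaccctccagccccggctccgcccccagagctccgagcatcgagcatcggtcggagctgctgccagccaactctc
Cnn1, calponin, chr9:22099003-22099252, plus strand: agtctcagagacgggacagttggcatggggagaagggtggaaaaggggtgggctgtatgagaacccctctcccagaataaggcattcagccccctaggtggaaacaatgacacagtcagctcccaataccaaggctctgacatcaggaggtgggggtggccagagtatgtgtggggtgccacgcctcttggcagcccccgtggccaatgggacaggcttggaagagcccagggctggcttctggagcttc
Lmod1, leiomodin, chr1:135324563-135324812, plus strand: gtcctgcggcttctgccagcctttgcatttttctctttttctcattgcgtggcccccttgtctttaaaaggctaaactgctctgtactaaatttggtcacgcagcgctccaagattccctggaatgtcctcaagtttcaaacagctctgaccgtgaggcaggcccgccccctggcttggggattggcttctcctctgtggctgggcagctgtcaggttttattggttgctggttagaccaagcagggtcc
Over windows of 300 bases, from 250 before to 50 after the start, 3 of the 25 contractile genes with a RefSeq promoter held the box (12.0%), Myl9, Vcl and Myl6, against 488 of 27025 genes (1.81%). The windows of Acta2, Cnn1 and Lmod1 did not hold these exact letters, and the search covered no sequence farther away. Boxes with another base among the 6 were not counted in any gene. The printed Acta2 bases ccctatatgg and ccttgtttgg are such near matches, with a C and a G among the 6.

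The vSMC numbered 203, 275 and 219 barcodes, or 2.95% (exact 95% binomial interval 2.56 to 3.37), 8.65% (7.70 to 9.68) and 4.48% (3.92 to 5.10) of the barcodes that passed the limits. The highest share, in the Foxn1Lin male library, was above both others with no overlap of these intervals, which cover counting error only. With 1 library per group, group and library cannot be told apart. Each vSMC barcode held a median of 4365, 5865 and 6562 UMIs, against 5999, 8539 and 8942.5 in all other barcodes, and mitochondrial genes gave a median of 4.43%, 6.20% and 5.88% of vSMC UMIs against 1.92%, 3.15% and 3.48%. The vSMC were thus shallower and had more mitochondrial RNA in all 3 libraries. They held 62.1%, 79.7% and 80.2% of all Acta2 UMIs of the barcodes that passed, in 1.85%, 5.47% and 2.60% of the UMIs. No vSMC barcode was shared between libraries.

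Tagln (transgelin, an actin-binding protein) and Myl9, markers that the gate did not read, were used to check the name. Tagln had a UMI in 98.5%, 98.9% and 99.5% of vSMC barcodes, and Myl9 in 99.0%, 98.9% and 98.6%. After every barcode was thinned to 2000 UMIs, Tagln was found in 96.5%, 97.4% and 94.98% of vSMC, against 6.67%, 7.64% and 2.99% of barcodes with at least 2 Epcam UMIs, a class that should lack it. The thinned share in vSMC was thus far above that of epithelial-marked barcodes in each library, and the name vSMC was kept.

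Barcodes just inside the gate were few. With exactly 5 Acta2 UMIs there were 6, 6 and 6 vSMC barcodes, with Tagln at 889, 3254 and 928 CPM (UMIs of the gene per 1e6 UMIs of the summed barcodes). With exactly 4 Acta2 UMIs, just outside, there were 7, 8 and 6 barcodes, with Tagln at 1445, 1524 and 1100.0 CPM. With exactly 2 Myh11 UMIs there were 8, 19 and 7 vSMC barcodes, and with exactly 1, just outside, 5, 17 and 5, with Tagln at 1825, 2643 and 1158 CPM inside and 1024, 2402 and 1423 CPM outside. A further 83, 57 and 39 barcodes had the actin and myosin UMIs but also a UMI of Pecam1, Epcam or Pdgfra. These had median UMIs of 8375, 10305 and 10512, above the vSMC medians, and Tagln at 1985, 1527 and 1516 CPM, below the vSMC levels given next.

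Within each library the UMIs of all vSMC barcodes were summed and set beside the sum over all other barcodes, and edgeR's quasi-likelihood test with the library as a block compared the sums over the 3 libraries. Because the gate formed both sets from these same barcodes, a call says how steadily a gene that the gate did not read differed over the libraries. The P-values, adjusted by the Benjamini-Hochberg method over all genes tested, measure only the spread between these 3 libraries. Of 17074 genes tested, 14.8% were called higher and 23.4% lower in vSMC (38.2% called), and the median log2 fold change was -0.22. The share of calls that were higher was 38.8%, and it fell to 23.3% when the sums were scaled by their totals alone, which moved the median to -0.53. Low-count genes were filtered before the test, and a gene passing only through its high set had to differ, so the counts of calls below describe the members tested and support no claim on the rest. Of the genes named below, the calls of Cdkn1a, Fmod, Tnc, Vim, Pdgfb, Acta1, Esam, Hspa1b, Ifitm1, Klf6, Mrtfb, Myh10, Plpp1, Spns2 and Tcf21 against all other barcodes, and of Pdgfrb and Trpc6 against all Abcc9 barcodes, were lost when the library block was left out of the edgeR fit (adjusted P from 0.0545 to 0.669).

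The contractile apparatus was higher almost throughout. Of its 27 members, all tested, 25 were higher in vSMC and 1 was lower, with a median log2 fold change of 2.75. Tagln was at 5236, 5458 and 4067 CPM in vSMC and 73.0, 181 and 53.0 CPM in all other barcodes (log2 fold change 6.08 ± 0.36, adjusted P = 1.25e-06). Myl9 was at 3526, 2774 and 2072 CPM against 65.5, 51.1 and 23.5 CPM (log2 fold change 6.29 ± 0.28, adjusted P = 4.52e-07). For both markers the lowest vSMC library lay far above the highest comparison sum. Calponin (Cnn1), a thin-filament protein of differentiated smooth muscle, was at 154, 87.9 and 50.4 CPM against 1.90, 0.805 and 0.971 CPM (log2 fold change 6.54 ± 0.24, adjusted P = 2.53e-07), highest in the Foxn1Lin female library. Leiomodin (Lmod1), which nucleates actin filaments, was at 713, 502 and 457 CPM against 10.99, 14.7 and 11.04 CPM (log2 fold change 5.79 ± 0.25, adjusted P = 4.26e-07). Desmin (Des), the muscle intermediate filament, was at 951, 1196 and 1043 CPM against 95.5, 139 and 120.4 CPM (log2 fold change 3.48 ± 0.19, adjusted P = 9.65e-07), nearly level over the 3 libraries. The 1 member called lower was Myh10, a nonmuscle myosin, at 11.5, 8.91 and 13.4 CPM against 47.1, 18.7 and 19.3 CPM (log2 fold change -0.86 ± 0.30, adjusted P = 0.044), a call that was lost without the Foxn1Lin female or the Foxn1Lin male library (adjusted P = 0.262 and 0.107).

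**Figure D1:**
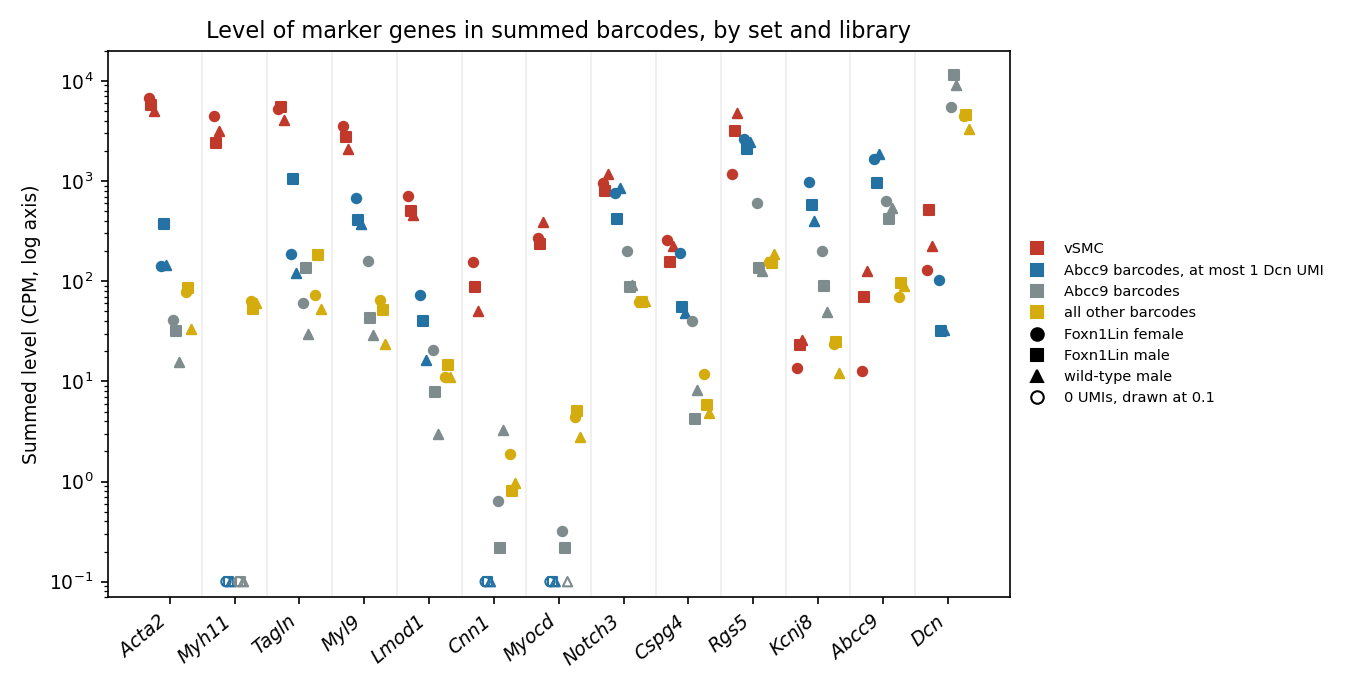
Summed levels of 13 genes (CPM, log axis) in vSMC, all other barcodes, all Abcc9 barcodes and the Abcc9 barcodes with little Dcn; each point is 1 library, and open points at the bottom stand for 0 UMIs. The contractile genes were highest in vSMC in each library, whereas the Rgs5 levels of vSMC and of Abcc9 barcodes with little Dcn overlapped, and Kcnj8 was highest in the latter.

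Transcription factors of mural cells were more divided, with 15 of 23 tested members higher and 4 lower (median log2 fold change 1.27). Myocardin (Myocd), the partner of serum response factor, was at 268, 234 and 388 CPM in vSMC and 4.45, 5.09 and 2.76 CPM in all other barcodes (log2 fold change 6.49 ± 0.34, adjusted P = 8.06e-07), with no overlap. Hey2, a Notch target and arterial regulator, was at 48.2, 64.0 and 108 CPM against 2.73, 5.83 and 14.1 CPM (log2 fold change 3.75 ± 0.23, adjusted P = 1.70e-06). Foxs1 and Tbx2 followed, with log2 fold changes of 3.26 ± 0.19 and 3.25 ± 0.20 (adjusted P = 1.05e-06 and 1.60e-06, edgeR). The 4 lower genes were Tcf21 (-1.40 ± 0.49), Gata6 (-1.10 ± 0.19), Hey1 (-1.09 ± 0.26) and Mrtfb (-0.67 ± 0.21, log2 fold changes ± SE), with adjusted P of 0.0456, 0.0012, 0.00758 and 0.0266. Without the Foxn1Lin male library the calls of Tcf21 and Mrtfb were lost (adjusted P = 0.481 and 0.353). Tcf21 had -0.81 without that library and -2.10 without the wild-type library. Hey1, unlike its relative Hey2, was on the lower side.

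Genes for ion channels and calcium handling were mostly higher, 20 of 24 tested members, with 1 lower and 3 not called (median log2 fold change 3.32). Phospholamban (Pln), the brake of the calcium pump of the sarcoplasmic reticulum, was at 316, 217 and 223 CPM in vSMC and 3.86, 2.64 and 1.98 CPM in all other barcodes (log2 fold change 6.81 ± 0.22, adjusted P = 2.30e-07). Kcnmb1, the smooth muscle subunit of the large-conductance calcium-activated potassium channel, was at 57.6, 62.9 and 58.7 CPM against 0.613, 1.09 and 1.29 CPM (log2 fold change 6.21 ± 0.26, adjusted P = 3.67e-07). Kcnab1, a potassium channel beta subunit, was at 1763, 1246 and 2264 CPM against 31.6, 39.4 and 21.9 CPM (log2 fold change 6.12 ± 0.37, adjusted P = 1.34e-06). All 3 genes lay above every comparison sum in each library. Calsequestrin 2 (Casq2), the calcium buffer of the same store, had a log2 fold change of 5.70 ± 0.29 (adjusted P = 6.84e-07, edgeR). The lower member, Clca3a1, had 0 UMIs in all vSMC sums, which puts it at least 7.82-fold lower (floor of 3 UMIs over the group).

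Receptors and their cyclic GMP and G-protein partners gave 20 of 29 tested members higher and 3 lower (median log2 fold change 1.97). P2rx1, the ATP-gated channel through which sympathetic nerves contract arteries, was at 126, 32.8 and 42.8 CPM in vSMC against 2.19, 1.29 and 1.33 CPM (log2 fold change 5.52 ± 0.27, adjusted P = 6.69e-07), and was highest in the Foxn1Lin female library. Gucy1a1, a subunit of the nitric oxide receptor guanylate cyclase, was at 579, 591 and 572 CPM against 39.8, 37.2 and 23.8 CPM (log2 fold change 4.44 ± 0.23, adjusted P = 7.17e-07), and its partner Gucy1b1 had a log2 fold change of 4.36 ± 0.26 (adjusted P = 1.25e-06, edgeR). Both were nearly level over the vSMC libraries. Rgs7bp, which anchors regulators of G-protein signalling, rose by a log2 fold change of 4.51 ± 0.28 (adjusted P = 1.77e-06, edgeR). Ptger4, a relaxing prostaglandin receptor, Npr2, a natriuretic peptide receptor, and Rgs3 were the lower members, with log2 fold changes of -3.18 ± 0.29, -2.66 ± 0.40 and -1.13 ± 0.19 (adjusted P = 1.71e-05, 4.94e-04 and 0.00103).

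Genes used as pericyte markers were also higher in vSMC than in all other barcodes, 16 of 21 tested and 0 lower (median log2 fold change 3.08). Notch3, the mural Notch receptor, was at 953, 796 and 1172 CPM against 61.4, 62.2 and 64.0 CPM (log2 fold change 4.24 ± 0.21, adjusted P = 7.01e-07). Cspg4, the NG2 proteoglycan, was at 256, 157 and 227 CPM against 11.7, 5.83 and 4.79 CPM (log2 fold change 5.22 ± 0.26, adjusted P = 6.94e-07), and Higd1b had a log2 fold change of 4.95 ± 0.34 (adjusted P = 3.22e-06, edgeR). Rgs5, a brake on G-protein signalling, was at 1175, 3166 and 4778 CPM against 155, 153 and 188 CPM (log2 fold change 4.30 ± 0.36, adjusted P = 1.09e-05), with all vSMC sums above the comparison but unequal among themselves. Pdgfrb, the receptor through which endothelial PDGF-B recruits mural cells, was at 255, 289 and 349 CPM against 84.6, 89.9 and 70.9 CPM (log2 fold change 2.16 ± 0.20, adjusted P = 2.13e-05), the smallest change among these 5.

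The second comparison set was the barcodes with at least 2 UMIs of Abcc9, a potassium channel subunit of capillary pericytes, and 0 UMIs of Myh11, numbering 461, 466 and 642. After thinning, Rgs5 had a UMI in 32.0%, 7.73% and 6.40% of these barcodes and Kcnj8, the pore partner of Abcc9, in 25.2%, 18.03% and 8.42%. Decorin (Dcn), a fibroblast proteoglycan, was at 5427, 11449 and 9203 CPM there against 129.9, 514 and 225 CPM in vSMC, and Rgs5 was at 605, 137 and 128 CPM. A subset of 72, 23 and 25 of these barcodes had 0 UMIs of Pecam1, Epcam and Pdgfra and at most 1 UMI of Dcn, a limit that was added after the values were seen. In it Rgs5 was at 2638, 2099 and 2441 CPM and Kcnj8 at 987, 580.4 and 397 CPM, so it is given below as the Abcc9 barcodes with little Dcn. The results of Rgs5 and Kcnj8 against it follow from that choice and are no check on it, though both genes enter the counts below. Of 11454 genes tested against all Abcc9 barcodes, 17.7% were called higher and 18.9% lower in vSMC (36.5% called, median log2 fold change -0.02). Without the Foxn1Lin male library the number of calls fell from 4183 to 2570, and the call of Rgs5 was lost (log2 fold change 3.31, adjusted P = 0.0978, against 3.90 ± 0.88 with all libraries). Its log2 fold change was 5.04 without the Foxn1Lin female and 2.91 without the wild-type library (adjusted P = 1.73e-07 and 0.0493, edgeR). Against the barcodes with little Dcn, 7190 genes were tested, with 12.3% higher and 9.57% lower (21.9% called, median 0.04).

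Contractile genes were higher in vSMC against both sets. Of 27 tested members, 25 were higher and 1 lower against all Abcc9 barcodes (median log2 fold change 2.60), and of 25 tested members 20 were higher and 0 lower against those with little Dcn (2.33). Tagln was at 188, 1042 and 122 CPM in the barcodes with little Dcn, where its difference from vSMC was 4.19 ± 0.45 on the log2 scale (adjusted P = 1.62e-05, edgeR). Myl9 was at 677, 405 and 373 CPM there, with a difference of 2.76 ± 0.24 (adjusted P = 3.41e-06, edgeR). Tagln in these barcodes was thus highest in the Foxn1Lin male library, and still below every vSMC sum. Mustn1, a small nuclear muscle protein, was at 1155, 1382 and 1049 CPM in vSMC and 12.2, 15.9 and 32.4 CPM there (log2 fold change 6.20 ± 0.37, adjusted P = 4.28e-07), and Des differed by 1.53 ± 0.25 (adjusted P = 4.63e-04, edgeR).

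Some vSMC genes were not found at all in the barcodes with little Dcn. Myocd had 0 UMIs there in all 3 libraries, which puts vSMC at least 49.0-fold higher (floor of 3 UMIs over the group). On the same floor Pln was at least 39.7-fold higher, the alpha-1A adrenergic receptor Adra1a at least 24.7-fold, the basement membrane collagen Col4a6 at least 23.2-fold, and Cnn1 at least 14.7-fold. The laminin chain Lama5 was at 278, 237 and 250.3 CPM in vSMC and 4.08, 7.95 and 16.2 CPM there (adjusted P = 3.06e-06, edgeR), with 1, 1 and 2 UMIs in the latter. Against all Abcc9 barcodes, 21 of 23 tested channel genes were higher and 1, Kcnj8, was lower (median log2 fold change 2.51), the latter a call lost without the Foxn1Lin male library (adjusted P = 0.0912). Against those with little Dcn, 14 of 23 were higher and 3 lower, Kcnj8 and Trpc6 among them (median 1.68).

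The counts of pericyte markers depended on which Abcc9 barcodes were compared. Against all of them 13 of 20 tested members were higher in vSMC and 4, Kcnj8, Anpep, Steap4 and P2ry14, lower (median log2 fold change 1.75). Of 19 tested members 3 were higher in vSMC than in the Abcc9 barcodes with little Dcn, Cspg4, Mcam and Notch3 (log2 fold changes 1.37 ± 0.33, 1.07 ± 0.27 and 0.77 ± 0.23, adjusted P = 0.00742, 0.0102 and 0.027, edgeR), and 7 were lower (median -0.42). Kcnj8, whose level had led to this set, was at 13.6, 22.8 and 26.2 CPM in vSMC (log2 fold change -4.63 ± 0.36, given with no P-value). Vtn (vitronectin) and Steap4 were lower by log2 fold changes of -2.13 ± 0.28 and -3.18 ± 0.24 (adjusted P = 8.22e-05 and 1.35e-06, edgeR), and Ebf1 and Enpep had -0.88 ± 0.23 and -1.75 ± 0.29 (adjusted P = 0.0116 and 6.49e-04). Rgs5, whose level had also led to this set, had a log2 fold change of 0.36 ± 0.34 against it, given with no P-value. Pdgfrb changed side with the comparison set: 0.69 ± 0.17 against all Abcc9 barcodes (adjusted P = 0.0203, edgeR) and -0.94 ± 0.23 against those with little Dcn (adjusted P = 0.00826, edgeR). Trpc6, a receptor-operated cation channel, did the same (0.66 ± 0.18 and -2.67 ± 0.26, adjusted P = 0.0279 and 7.90e-06). The first of these values was no longer called for either gene without the Foxn1Lin male or the wild-type library (adjusted P between 0.0854 and 0.165).

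Of 27 receptor and signalling genes tested against all Abcc9 barcodes, 15 were higher in vSMC and 4, Ptger4, Npr2, Rgs3 and Sod3, lower (median log2 fold change 1.72). Against those with little Dcn 6 of 21 tested members were higher and 5 lower (median 0.31). Agtr1a, the angiotensin II receptor, was at 13.6, 14.5 and 21.1 CPM in vSMC and 302, 270.3 and 300.1 CPM in those barcodes (log2 fold change -3.93 ± 0.28, adjusted P = 1.10e-06). Ednrb, an endothelin receptor, had a log2 fold change of -2.43 ± 0.23 (adjusted P = 6.86e-06, edgeR), and Adra2a, Rgs16 and Adcy3 were the other lower members (-1.70 ± 0.35, -1.74 ± 0.24 and -1.34 ± 0.34, adjusted P = 0.00271, 1.40e-04 and 0.0107). Agtr1a was thus lower in each vSMC sum than in each of the other sums, whereas P2rx1 was at 126, 32.8 and 42.8 CPM in vSMC and 4.08, 0 and 0 CPM there. Transcription factors gave 12 of 22 tested members higher and 2, Gata6 and Tcf21, lower against all Abcc9 barcodes (median 1.06). Against those with little Dcn 7 of 19 were higher and 4 lower (median 0.55), the latter being Tbx18, Ebf2, Zeb2 and Ebf1 (-2.62 ± 0.44, -1.27 ± 0.25, -1.16 ± 0.22 and -0.88 ± 0.23 on the log2 scale, adjusted P = 6.04e-04, 0.00183, 0.00166 and 0.0116).

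**Figure D2:**
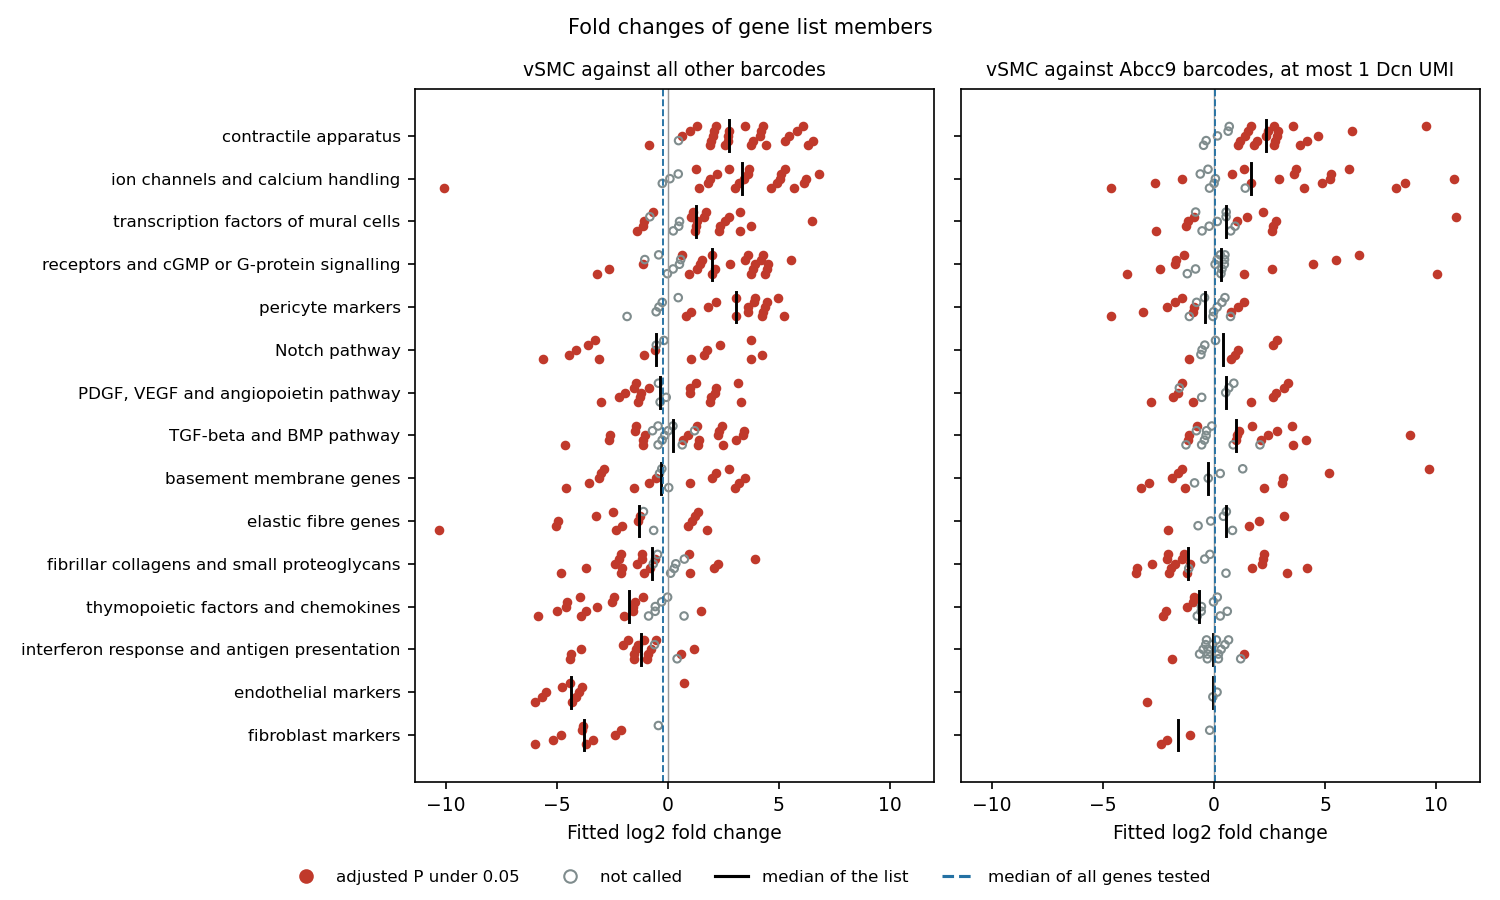
Fitted log2 fold changes of the members of 15 lists, vSMC against all other barcodes (left) and against the Abcc9 barcodes with little Dcn (right); each point is a gene, red points passed an adjusted P of 0.05 in edgeR, black bars are list medians and the dashed line is the median of all genes tested. Fitted values of genes with 0 UMIs in a set depend on the prior count and are no bounds; contractile and channel genes lay mostly above the dashed line in both panels, and the pericyte marker median did so only in the left one.

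Notch receptors, ligands and targets each held members that were higher in vSMC and members that were lower. Of 17 tested members 7 were higher in vSMC than in all other barcodes and 8 lower (median log2 fold change -0.52). The receptor Notch3 and the targets Nrarp, Hey2 and Heyl were higher, Nrarp with a log2 fold change of 3.76 ± 0.25 and Heyl with 2.35 ± 0.18 (adjusted P = 2.52e-06 and 5.89e-06, edgeR), whereas the target Hey1 was lower, as given above, a call lost after thinning (adjusted P = 0.0758, edgeR). The endothelial ligand Dll4 was at 2.09, 0 and 0 CPM in vSMC and 32.9, 30.2 and 24.5 CPM in all other barcodes (adjusted P = 4.87e-05, edgeR), on 2, 0 and 0 UMIs. The glycosyltransferases Mfng and Lfng, which tune Notch receptors, and the endothelial receptor Notch4 were called lower as well (adjusted P = 0.00124, 0.00639 and 1.01e-04), on too few vSMC UMIs for a fold. Mfng had 2, 0 and 0 UMIs in the 3 vSMC sums, Lfng had 0, 0 and 1, and Notch4 had 2, 2 and 1. The ligand Jag1, made by endothelium and mural cells, was at 66.0, 117 and 173 CPM against 26.1, 48.2 and 67.9 CPM (log2 fold change 1.62 ± 0.16, adjusted P = 3.05e-05).

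In each matrix list more members were called lower than higher, which was also so over all genes tested (14.8% higher and 23.4% lower). In the elastic fibre list 5 of 16 tested members were higher and 9 lower (median log2 fold change -1.31). Elastin (Eln) was at 199, 153 and 391 CPM in vSMC and 130.2, 118 and 151 CPM in all other barcodes (log2 fold change 1.09 ± 0.22, adjusted P = 0.0032), highest in the wild-type library. The other higher members were Emilin1, the cross-linking enzyme Lox, Ltbp1 and Efemp2 (1.76 ± 0.23, 1.34 ± 0.26, 1.23 ± 0.22 and 0.89 ± 0.20, adjusted P = 1.79e-04, 0.0022, 0.00126 and 0.00479). The fibulins Fbln1 and Fbln2 were at the other end (-5.03 ± 0.26 and -4.93 ± 0.36, adjusted P = 7.51e-07 and 4.09e-06).

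Among 18 basement membrane genes tested, 7 were higher and 8 lower (median log2 fold change -0.32). Lama5 was at 278, 237 and 250.3 CPM against 22.3, 37.0 and 27.4 CPM (log2 fold change 3.47 ± 0.22, adjusted P = 1.89e-06), and Lamc3, Col4a6 and Lamb2 rose with it (3.19 ± 0.34, 3.02 ± 0.18 and 2.74 ± 0.22, adjusted P = 4.74e-05, 1.33e-06 and 8.48e-06). The laminin chains Lama2 and Lamb1 and the collagen Col15a1 were lower (-3.57 ± 0.36, -3.11 ± 0.21 and -4.61 ± 0.24, adjusted P = 3.36e-05, 2.46e-06 and 7.17e-07), Lama2 with -4.31 without the wild-type library. Laminin genes thus went both ways. Of 24 fibrillar collagens and small proteoglycans 13 were lower and 5 higher (median -0.73). The 5 were Aspn, Fmod, Sparcl1, Tnc and Prelp (3.94 ± 0.24, 2.27 ± 0.54, 2.09 ± 0.22, 1.01 ± 0.22 and 0.95 ± 0.17, adjusted P = 1.37e-06, 0.00814, 4.19e-05, 0.00508 and 0.00144). Fmod ranged from 1.62 without the Foxn1Lin male to 3.22 without the Foxn1Lin female library. Col1a1 was at 22.0, 28.9 and 35.8 CPM in vSMC and 250.2, 129 and 202 CPM in all other barcodes (log2 fold change -2.36 ± 0.25, adjusted P = 4.61e-05).

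Adhesion genes gave 10 of 24 tested members higher and 9 lower (median log2 fold change 0.27, but -0.039 with scaling by totals alone). Itga7, a laminin-binding integrin subunit of muscle, was at 259, 201 and 349 CPM in vSMC and 9.21, 7.47 and 5.20 CPM in all other barcodes (log2 fold change 5.51 ± 0.31, adjusted P = 9.79e-07), and cadherin 6 (Cdh6) was at 202, 120.2 and 139.8 CPM against 2.79, 2.09 and 2.69 CPM (log2 fold change 6.20 ± 0.20, adjusted P = 2.30e-07). Both were above every comparison sum. The gap junction gene Gja1 was at 9.43, 2.78 and 0.638 CPM against 222, 250.7 and 159 CPM (log2 fold change -5.60 ± 0.39, adjusted P = 3.19e-06), lower in each library and at -6.58 without the Foxn1Lin female library.

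Of 29 TGF-beta and BMP genes tested 12 were higher and 8 lower (median log2 fold change 0.23, but -0.071 with scaling by totals alone). The ligand Bmp5 was at 29.3, 63.5 and 53.0 CPM in vSMC and 4.35, 6.66 and 5.88 CPM in all other barcodes (log2 fold change 3.39 ± 0.21, adjusted P = 1.62e-06, edgeR), and the ligand Tgfb3 had a log2 fold change of 3.09 ± 0.17 (adjusted P = 9.47e-07, edgeR). Bmp4, a ligand of thymic mesenchyme, was lower (-2.62 ± 0.31, adjusted P = 9.22e-05). Among 21 PDGF, VEGF and angiopoietin genes 9 were higher and 9 lower (median -0.35). The ligand Pdgfa was at 400.1, 468 and 357 CPM against 45.7, 61.4 and 64.2 CPM (log2 fold change 3.14 ± 0.19, adjusted P = 1.60e-06). Ramp1, which makes the calcitonin receptor-like receptor bind CGRP, and the Tie2 ligand Angpt1 were also higher (3.31 ± 0.18 and 2.11 ± 0.16, adjusted P = 9.79e-07 and 6.33e-06), whereas Pdgfb and adrenomedullin (Adm) were lower (-1.52 ± 0.37 and -3.01 ± 0.28, adjusted P = 0.00871 and 1.91e-05). Without the wild-type library Pdgfb had -2.10.

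Factors that thymic stroma offers to T cells were lower in vSMC, 15 of 22 tested members, and 1 was higher (median log2 fold change -1.77). That gene was Il34, a ligand of the macrophage receptor Csf1r, at 209, 330.1 and 284 CPM in vSMC and 67.0, 164 and 144 CPM in all other barcodes (log2 fold change 1.502 ± 0.19, adjusted P = 1.46e-04), with every vSMC sum above every comparison sum. The chemokine Cxcl13 was at 5.24, 3.90 and 0.638 CPM against 179, 113 and 80.9 CPM (log2 fold change -5.00 ± 0.30, adjusted P = 1.29e-06). Fgf10, a growth factor for thymic epithelium, was also lower (-4.54 ± 0.37, adjusted P = 8.02e-06; -5.72 without the wild-type library), and Cxcl14 was called lower (adjusted P = 8.53e-06) on 2, 1 and 0 UMIs in vSMC. Ccl19, Ccl21a and Tnfsf11 of this list were not tested. A copy of Ccl19 was at 16.8 and 849 CPM in Foxn1Lin female and male vSMC, against 191 and 507 CPM in all other barcodes, so it went both ways. Against all Abcc9 barcodes 15 of 22 tested members were lower and 0 higher (median -1.87), and against those with little Dcn 5 of 12 were lower and 0 higher (median -0.66).

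In the sphingosine phosphate pathway, by which mature T cells leave the thymus, 1 of 11 tested members was higher and 5 lower (median log2 fold change -0.38). The receptor S1pr3 was at 374, 301 and 276 CPM in vSMC and 68.4, 65.9 and 91.2 CPM in all other barcodes (log2 fold change 2.38 ± 0.20, adjusted P = 1.04e-05). The lower members were S1pr1, S1pr2, the exporter Spns2, the lyase Sgpl1 and the phosphatase Plpp1 (-4.04 ± 0.23, -1.66 ± 0.31, -1.42 ± 0.49, -1.16 ± 0.19 and -0.71 ± 0.23, adjusted P = 1.13e-06, 0.00172, 0.0425, 7.78e-04 and 0.0307). The calls of Spns2 and Plpp1 were lost without the Foxn1Lin male library (adjusted P = 0.177 and 0.258), and that of Plpp1 also without the wild-type library (adjusted P = 0.0909), where Spns2 had a log2 fold change of -3.08. S1pr3 was thus the only sphingosine phosphate receptor of the list called higher.

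Genes of the synthetic smooth muscle state, a less contractile form, gave 5 of 16 tested members higher and 8 lower (median log2 fold change -0.78). The higher ones were Ccn2, S100a4, Lgals3, Thbs1 and Vim (2.90 ± 0.25, 2.45 ± 0.22, 2.36 ± 0.40, 1.70 ± 0.24 and 1.12 ± 0.24, adjusted P = 1.32e-05, 1.43e-05, 0.00106, 2.76e-04 and 0.00453), Lgals3 with 3.08 without the Foxn1Lin female library. Among 20 immediate early and dissociation genes 11 were higher and 2, Hspa1b and Klf6, were lower (median 0.74). The nuclear receptor Nr4a1 was at 1123, 1867 and 1952 CPM against 161, 343 and 195 CPM (log2 fold change 3.15 ± 0.24, adjusted P = 5.54e-06), and Btg2, Atf3 and Junb followed (1.68 ± 0.21, 1.32 ± 0.20 and 1.13 ± 0.23, adjusted P = 1.35e-04, 4.74e-04 and 0.00298). Genes of this list respond to growth signals and stress and are also known to be induced while tissue is digested. Hspa1b and Klf6 had log2 fold changes of -1.09 ± 0.34 and -0.56 ± 0.18 (adjusted P = 0.0284 and 0.0352), and both calls were lost without the Foxn1Lin male library (adjusted P = 0.121 and 0.133), that of Klf6 also without the Foxn1Lin female library (adjusted P = 0.23). Hspa1b had -1.75 without the wild-type library.

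Senescence and inflammatory secretory genes split evenly, 6 of 20 tested members higher and 6 lower (median log2 fold change -0.19). Cdkn1a, the p21 inhibitor of the cell cycle, was at 694, 833 and 408 CPM in vSMC and 449, 401 and 156 CPM in all other barcodes (log2 fold change 1.32 ± 0.21, adjusted P = 6.02e-04), whereas Cdkn2a, the p16 locus, was at 0, 0 and 0.638 CPM against 11.3, 22.0 and 24.0 CPM (adjusted P = 4.61e-05, edgeR), on 0, 0 and 1 UMIs in vSMC. The inhibitor of metalloproteases Timp3 and the cytokine Il6 were higher (1.63 ± 0.27 and 1.51 ± 0.29, adjusted P = 9.54e-04 and 0.00224). Of 18 interferon response and antigen presentation genes 14 were lower and 2 higher (median -1.21), the latter being Irf1 and Ifitm1 (1.17 ± 0.21 and 0.57 ± 0.19, adjusted P = 0.00156 and 0.0372). The call of Ifitm1 was lost without the Foxn1Lin male or the wild-type library (adjusted P = 0.105 and 0.24), and its direction turned under the stricter gate of at least 10 Acta2 and 4 Myh11 UMIs (-0.48). Of 14 cell cycle genes 9 were lower and 0 higher (median -2.57). Counts were low, with 5, 3 and 1 Mki67 UMIs in vSMC. The summed list was at 86.9, 103 and 83.0 CPM in vSMC and 162, 187 and 261 CPM in all other barcodes.

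Markers of other cell types were low, in sums that included no Pecam1, Epcam or Pdgfra UMI by the rule. Summed over each list, endothelial markers were at 282, 198 and 169 CPM in vSMC against 2357, 2184 and 1182 CPM in all other barcodes, and fibroblast markers at 377, 898 and 497 CPM against 7304, 6714 and 5561 CPM. Epithelial markers summed to 179, 64.6 and 77.3 CPM against 2242, 2476 and 3535 CPM, and hematopoietic markers to 76.5, 26.2 and 24.9 CPM against 266, 226 and 336 CPM. The endothelial cadherin Cdh5 had 11, 3 and 2 UMIs in vSMC and Ptprc (CD45) had 11, 3 and 1. Of 10 endothelial markers tested 9 were lower and 1, the junction protein Esam, was higher (0.74 ± 0.26, adjusted P = 0.0476, edgeR), though not without the wild-type library (adjusted P = 0.321). All 9 epithelial markers tested, 9 of 10 fibroblast markers and 8 of 10 hematopoietic markers were lower, and 0 were higher. The 5 mesothelial markers tested were lower, as were 4 of 5 erythroid markers (Hba-a1, Hba-a2, Hbb-bs and Hbb-bt) and 3 of 6 Schwann cell markers (Sox10, Ngfr and Cdh19). Of 7 skeletal and cardiac muscle markers tested 3 were lower, Tnnt2, Myl7 and Actn3, and skeletal actin (Acta1) was higher, with 11, 4 and 0 UMIs in vSMC (log2 fold change 3.30 ± 1.14, adjusted P = 0.0432), a call lost without the Foxn1Lin female or the Foxn1Lin male library (adjusted P = 0.388 and 0.0839). Its log2 fold change was 1.43 without the Foxn1Lin female library and 5.01 without the wild-type library. A Cdh5 or Ptprc UMI or at least 3 Dcn UMIs were found in 32, 21 and 19 vSMC barcodes (15.8%, 7.64% and 8.68%), which are called mixed barcodes below.

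Beyond the lists, the genes with the largest changes were taken among those at 50 or more CPM in either set. Susd5, Xirp1, an actin-binding protein of striated and stressed muscle, and Nrip2 were among the 10 with the largest rise against all other barcodes (6.99 ± 0.25, 6.98 ± 0.33 and 6.75 ± 0.27 on the log2 scale, adjusted P = 2.38e-07, 5.50e-07 and 3.40e-07). Susd5 was at 94.3, 44.5 and 50.4 CPM in vSMC and 0.811, 0.322 and 0.647 CPM in all other barcodes, and Xirp1 at 180.2, 95.7 and 79.8 CPM against 1.72, 1.61 and 0.392 CPM. Kcnb2 and Calcb had 0 UMIs in vSMC and were at least 100.3-fold and at least 82.2-fold lower. Slc38a11, an amino acid transporter, was at 155, 101 and 160.3 CPM in vSMC and had 0 UMIs in all Abcc9 barcodes, at least 616-fold higher. The lowest genes against the barcodes with little Dcn included Cdh2 (N-cadherin) and Adgrf5 (-3.95 ± 0.28 and -3.94 ± 0.30, adjusted P = 1.10e-06 and 1.35e-06).

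Rgs5 varied widely among the vSMC barcodes themselves, and the split that follows was chosen after its values were seen. In single vSMC the median Rgs5 level was 313, 2006 and 2867 CPM, with a highest value of 12341, 26944 and 37292 CPM. Rgs5 had 0 UMIs in 81, 62 and 32 vSMC barcodes (39.9%, 22.5% and 14.6%), and at least 3 UMIs in 84, 201 and 171 (41.4%, 73.1% and 78.1%). The barcodes with 0 UMIs were not the shallow ones, with median UMIs of 4657, 6978 and 7594.5 against 3885.5, 5691 and 6103. Their mitochondrial share was higher, at 7.11%, 7.77% and 8.36% against 3.30%, 5.64% and 5.30%. Between libraries, Rgs5-rich barcodes were rarest in the Foxn1Lin female library.

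**Figure D3:**
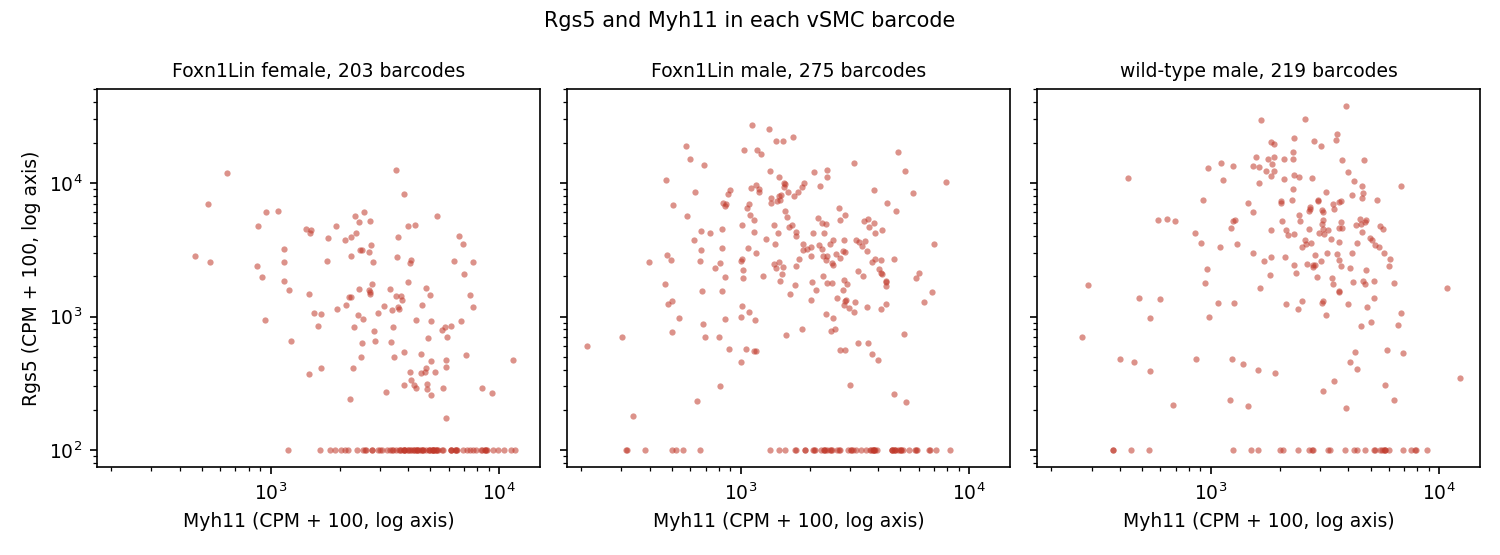
Rgs5 against Myh11 in single vSMC barcodes (CPM + 100, log axes), 1 panel per library; each point is a barcode. Barcodes with 0 Rgs5 UMIs form the row at the bottom of each panel and number 81, 62 and 32.

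The barcodes with at least 3 Rgs5 UMIs were set beside those with 0 in each library, as ratios of sums with no test. Over 6008 genes, 20.5% were higher and 15.8% lower with Rgs5 in 3 of 3 libraries, and 0.666% and 0.399% were so by at least 2-fold. Of 26 contractile genes 19 were lower with Rgs5 in 3 of 3 libraries and 2, Des and Myh9, were higher. Myh11 differed by log2 ratios of -0.61, -0.62 and -0.37, Acta2 by -0.59, -1.06 and -0.96 and Tagln by -0.51, -0.91 and -1.004. Cnn1 differed more, being at 58.5, 40.5 and 27.9 CPM with Rgs5 and 255, 223 and 125 CPM without it (log2 ratios -2.12, -2.46 and -2.17). The calcium release channel Ryr2 and the potassium channel Kcnma1 were likewise lower (log2 ratios -1.38, -2.02 and -1.10 for Ryr2, and -1.34, -1.78 and -1.75 for Kcnma1).

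In the other direction, 10 of 17 pericyte markers were higher with Rgs5 in 3 of 3 libraries and 1, Cspg4, was lower. Vtn was at 104, 151 and 73.5 CPM with Rgs5 and 2.57, 6.51 and 11.4 CPM without it (log2 ratios 3.76, 4.53 and 2.69). Higd1b had log2 ratios of 0.71, 1.11 and 1.30, and Steap4 of 1.37, 1.44 and 0.64. Nrgn (neurogranin, a calmodulin-binding protein) was at 274, 428 and 374 CPM against 41.1, 43.4 and 30.4 CPM. Immediate early genes were higher in 13 of 18 and lower in 0, and interferon genes in 10 of 15 and 1, Isg15 having log2 ratios of 1.22, 1.72 and 1.08. The barcodes differed in mitochondrial share as given above, and its part in these ratios was not tested.

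The tdTomato reporter was counted as the feature tdT-WPRE of the transgene. After thinning to 2000 UMIs it had a UMI in 14 of 201 (6.97%, exact 95% binomial interval 3.86 to 11.4) and 21 of 272 vSMC barcodes (7.72%, 4.84 to 11.6) of the Foxn1Lin female and male libraries. In the wild-type library it had a UMI in 0 of 219, with an exact upper limit of 1.67%. Barcodes with at least 2 Epcam UMIs, the class in which Foxn1-Cre is active, had it in 66.4% and 79.1%. Barcodes with at least 2 Pdgfra UMIs, a class that should lack it, had it in 4.401% and 5.01%, and those with at least 2 Pecam1 UMIs in 10.6% and 8.25%. All Abcc9 barcodes had it in 8.62% and 6.44%. The vSMC share lay between those of the Pdgfra and Pecam1 classes in both libraries. With at least 2 reporter UMIs required it was 0.995% (2 barcodes) and 2.21% (6 barcodes), against 0.574% and 1.003% in the Pdgfra class, 0.764% and 0.258% in the Pecam1 class and 1.36% and 1.502% in the Abcc9 barcodes, with overlapping exact intervals. Summed levels were 51.3 and 106 CPM in vSMC, 27.7 and 45.3 CPM in the Pdgfra class and 54.1 and 46.3 CPM in the Pecam1 class. The male vSMC level rested on 6 barcodes, described next. Droplets without a called cell held the reporter at 237 and 556 CPM, above its level in vSMC, and the part of free RNA in the vSMC values was not tested.

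**Figure D4:**
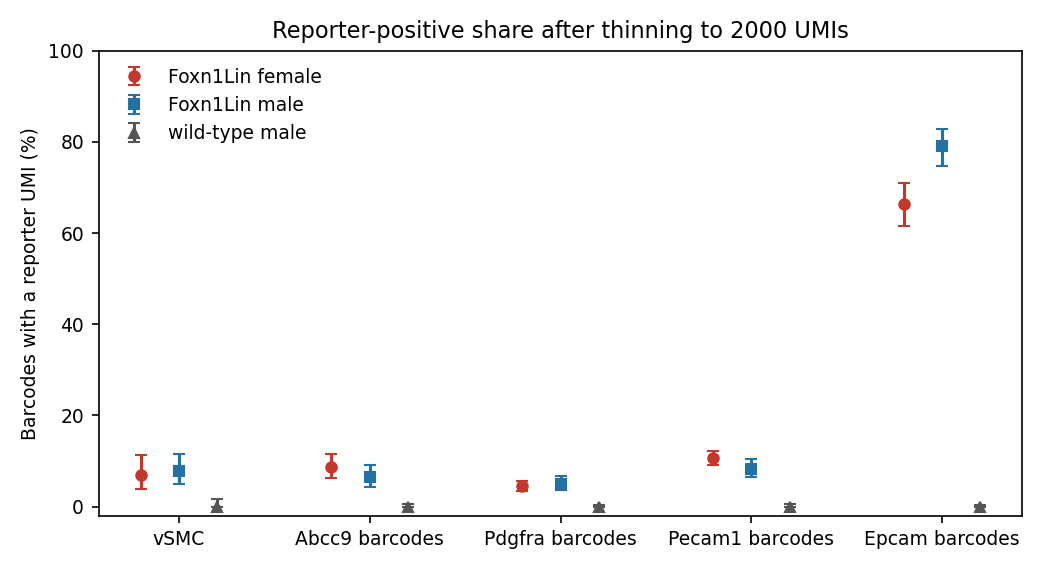
Share of barcodes with a reporter UMI (percent, after thinning to 2000 UMIs) for vSMC and 4 other classes in the 3 libraries, with exact 95% binomial intervals. Barcodes with Epcam stand at 66.4% and 79.1% in the Foxn1Lin libraries, and all other classes, vSMC included, stay near the bottom.

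In the Foxn1Lin male library 6 vSMC barcodes had 5 or more reporter UMIs and held 71.6% of all reporter UMIs of its vSMC. These barcodes, singled out after the values were seen, had a median of 12178 UMIs, with Acta2 at 1833 CPM against 5928 CPM in the other vSMC, and Myh11 at 335 against 2512 CPM. Tagln was nearly level (4965 against 5480.0 CPM), while Des was at 93.7 against 1244 CPM and Rgs5 at 120.5 against 3298 CPM. They also held 98.8% of Ptn, 86.5% of Trpm3 and 76.8% of Cd74 UMIs of that library's vSMC, with 0 UMIs of Krt5 and 3 of Krt8. They met the gate and go against the vSMC profile in several of its markers. The other vSMC of that library had the reporter at 31.4 CPM, a level that the removal of barcodes by their reporter UMIs lowers by construction.

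Between libraries the vSMC sums were compared as ratios of CPM, with no test, since each group had 1 library. Of 8208 genes with at least 20 UMIs in the Foxn1Lin female or male vSMC, 3.22% were at least 2-fold higher and 8.22% at least 2-fold lower in the female library. Sex, pool and library cannot be told apart in this pair. Of the 939 genes past 2-fold, 197 (21.0%) were past 2-fold the same way in all other barcodes, where 453 of the 8208 genes (5.52%) were past 2-fold, so that the 197 were 43.5% of those. Between the Foxn1Lin male and the wild-type male library 3.84% of 8522 genes were higher and 4.92% lower by at least 2-fold, and 85 of these 746 (11.4%) were so in all other barcodes, where 244 of the 8522 genes (2.86%) were past 2-fold, the 85 being 34.8% of those. Across genes, which are not independent replicates, the log2 ratios of vSMC and of all other barcodes had Pearson's r of 0.527 and 0.462 in these pairs, which share libraries and depth. In the contractile list, 0 of 26 genes were past 2-fold between the Foxn1Lin libraries, and 1 of 27, Actg2, was past it between the male libraries.

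The largest ratios between the Foxn1Lin libraries were not in vSMC alone. Sema3c was at 1162 CPM in female and 1.11 CPM in male vSMC, but at 1057 and 15.3 CPM in all other barcodes and at 2311 and 22.8 CPM in droplets without a cell. Cdk8 (2235 against 77.9 CPM) had 3345 and 169 CPM in those droplets. Gm19951 (309 against 2.23 CPM) was at 1005 and 13.7 CPM in them. Parathyroid hormone (Pth) was at 222 CPM in female and 2.78 CPM in male vSMC, and at 4071 and 315 CPM in droplets without a cell. In all other barcodes Pth went the other way, at 407 and 864 CPM. Haemoglobin (Hbb-bs) was at 99.5 and 0 CPM in vSMC, and at 1654 and 18.5 CPM in those droplets. In each of these genes the droplets differed the same way as the vSMC, and the part of free RNA in the vSMC values was not tested. Xist (432 and 0.557 CPM) and the Y-linked Ddx3y (6.28 and 205 CPM) followed the sex labels.

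Some of the largest ratios on the lower side of the Foxn1Lin female vSMC rested on few barcodes. One copy of Ccl19 was at 16.8 CPM in female and 849 CPM in male vSMC, where 5 barcodes held 57.9% of its UMIs and mixed barcodes 81.6%. Tnfsf8 was at 0 and 87.9 CPM, with 99.4% of the male UMIs in 5 barcodes, and Fmo2 at 3.14 and 54.0 CPM, with 95.9% in mixed barcodes. Among the lists, 8 of 20 immediate early genes and 7 of 18 interferon and antigen presentation genes were at least 2-fold lower in the female library, and 0 were higher (median log2 ratios -0.81 and -0.89, against -0.09 over all genes). The difference was not in vSMC alone. Interferon and antigen presentation genes summed to 3035 and 6125 CPM in female and male vSMC, and also to 10095 and 17082 CPM in all other barcodes. Immediate early genes summed to 17954 and 27100 CPM in vSMC and to 15409 and 19017 CPM in all other barcodes. Of the pericyte markers 3 of 19 were lower, Rgs5, Vtn and Anpep (log2 ratios -1.43, -1.29 and -1.41), against 8.22% of all genes. Of the channel genes 2 of 23 were higher, Ryr2 and Casq2 (log2 ratios 1.004 and 1.11), against 3.22% of all genes. Both counts are small and were not tested.

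Between the male libraries the reporter differed, as the genotypes do, by at least 55.2-fold, and by at least 16.4-fold without the barcodes with 5 or more reporter UMIs. Ptn was at 140 CPM in Foxn1Lin and 12.1 CPM in wild-type vSMC, with 94.8% of the former in 5 barcodes, and it turned to the wild-type side without the reporter-rich barcodes (1.74 CPM). A copy of Ccl21a was at 156 and 20.4 CPM, and turned likewise (log2 ratio -2.81). Of the lower genes Grm7 was at 3.34 and 68.3 CPM, with 81.3% of the wild-type UMIs in 5 barcodes, whereas the heat-shock gene Hsph1, at 38.4 and 184 CPM, also differed in all other barcodes (95.4 and 235 CPM). Elastin and Ltbp1 were lower in the Foxn1Lin male vSMC (log2 ratios -1.35 and -1.10), as were the calcium channel subunit Cacna1c and the sodium-calcium exchanger Slc8a1 (-1.19 and -1.02). No pericyte marker was past 2-fold between these libraries (0 of 19), where 3.84% of all genes were higher and 4.92% lower. A list this short can hold 0 such genes at those shares.

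**Figure D5:**
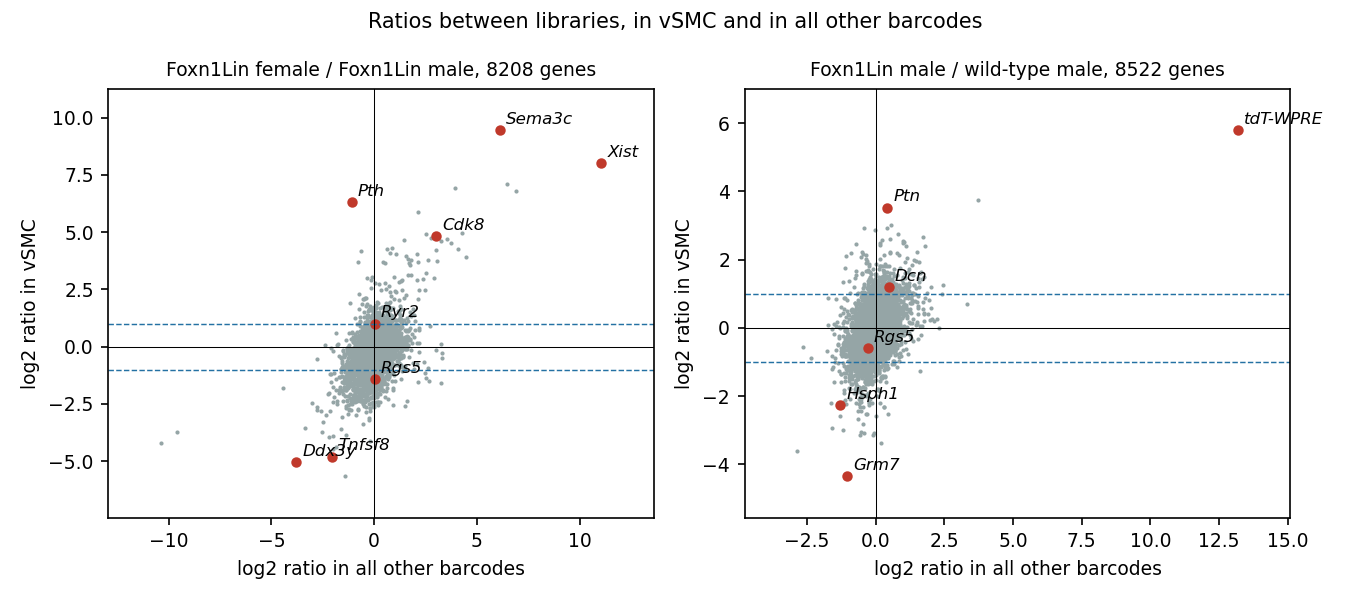
Log2 ratios between libraries in vSMC (vertical) against those in all other barcodes (horizontal), Foxn1Lin female over male (8208 genes) and Foxn1Lin male over wild-type male (8522 genes); each point is a gene, named genes are red and dashed lines mark 2-fold. Sema3c and Xist lie far out on both axes, and 197 of 939 and 85 of 746 genes past 2-fold in vSMC were past it the same way in all other barcodes.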

How the data were processed

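The authors deposited UMI counts per gene and barcode, called and uncalled, made with Cell Ranger (version 7.01 per the labels) on GRCm38 with transgene sequences added. The counts were used as deposited. Called barcodes were kept with more than 1000 genes and under 20% mitochondrial UMIs, levels that the study read as signs of quality and judged over clusters, whereas here they were limits on each barcode. No doublet was removed in the main results, since the automatic Scrublet threshold called 0, 15 and 1 barcodes. UMIs were summed per library and set, and edgeR 4.0.16 (quasi-likelihood test, TMM, filterByExpr, library block; R 4.3.3) compared 2 sums in each of 3 libraries, with the 6 genes of the set rules left out of the calls and Benjamini-Hochberg adjusted P of 0.05 as threshold. The library block pairs sums of the same library. Libraries were compared as CPM ratios with no test, over genes with at least 20 UMIs. The code was tested on simulated data. Members and all 28 gene lists were chosen with earlier results of these data known. Named genes were up to 4 per list and direction by fold change, members behind counts of up to 5, the 10 largest changes each way at 50 CPM or more, and the 6 largest ratios each way between libraries; others were chosen after their values were seen. Some genes that the rule names are not reported here. Thinning drew 2000 UMIs per barcode; intervals cover counting error only. Droplets without a cell are uncalled barcodes of 20 to 500 UMIs. Their median was 253, 44 and 53 UMIs, so those of the Foxn1Lin female library held more RNA each. Total called UMIs were 53366016, 33386621 and 61258534.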

Additional observations from a re-analysis of the deposited data

Results flagged for a closer look

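In 4 genes of the lists the ratio of vSMC to all other barcodes pointed in opposite directions in different libraries, by at least 2-fold each way. The difference was not tested, since each group had 1 library. Fibronectin (Fn1) had a log2 ratio of 1.35 in the wild-type male and -1.59 in the Foxn1Lin female library. For this gene vSMC were at 86.9, 145 and 328 CPM in the order Foxn1Lin female, Foxn1Lin male and wild-type male, and all other barcodes at 262, 61.5 and 128 CPM. Ogn, the small proteoglycan osteoglycin, had 1.61 in the Foxn1Lin male and -1.95 in the Foxn1Lin female library, with 94.3, 115 and 60.7 CPM against 365, 37.5 and 54.4 CPM. Kcnma1, the pore of the large-conductance calcium-activated potassium channel, had 1.18 in the Foxn1Lin female and -1.06 in the wild-type male library, with 233, 152 and 169.8 CPM against 103, 239.5 and 354 CPM. Rgs2, a regulator of G-protein signalling, had 1.34 in the Foxn1Lin female and -1.04 in the wild-type male library, with 48.2, 36.7 and 35.1 CPM against 19.1, 26.3 and 72.2 CPM, on 46, 66 and 55 vSMC UMIs of which 5 barcodes held 47.8%, 43.9% and 50.9%. The vSMC levels of Ogn, Kcnma1 and Rgs2 thus differed less between libraries than those of all other barcodes.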

How the results depend on the processing

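Against all other barcodes, where 6515 genes were called, the count stayed within 1.5 times under every alternative run, from 4550 without the Foxn1Lin male library to 7613 with no scaling beyond library totals. Without the library block, the replicate block of this design, it was 5191, and against the Abcc9 barcodes 2804 in place of 4183. The latter count was 2384 when the Abcc9 barcodes also lacked Pecam1, Epcam and Pdgfra, 1575 with at most 1 Dcn UMI as well, and ranged from 2570 to 4379 when 1 library was left out. The DESeq2 Wald test called 5585 and 3182 genes, and leaving out mixed vSMC barcodes gave 6758 and 4230. With no scaling 35.7% of calls against the Abcc9 barcodes were higher, in place of 48.3%. The vSMC share in the Foxn1Lin female library was 2.25% with the stricter gate, 3.38% with the looser one (at least 3 Acta2 and 1 Myh11 UMIs) and 2.56% with more than 1500 genes and under 10% mitochondrial UMIs. In the Foxn1Lin male library it was 6.73% and 9.97% with these gates and 6.65% when gated after thinning, and in the wild-type library 3.52% with the stricter gate and 3.29% after thinning. The order of the libraries was the same in each. The reporter share was 0.995% and 2.21% with at least 2 UMIs required, and 16.7% and 17.8% without thinning. Against the Abcc9 barcodes without Pecam1, Epcam and Pdgfra, log2 fold changes turned negative for Adra2a (-0.996), Ednrb (-1.39), Enpep (-1.09), Pdgfrb (-0.31) and Trpc6 (-1.62). With at most 1 Dcn UMI as well they were -1.70, -2.43, -1.75, -0.94 and -2.67, and Ebf1 (-0.88) and Ebf2 (-1.27) turned too. Ifitm1 turned to -0.48 under the stricter gate and -0.0564 after thinning, and the Ccl21a copy to -2.81 between the male libraries without reporter-rich barcodes. The cause was not tested. Of the 133 gene values and counts tested, 17 lost their call without the block and 13 without the Foxn1Lin male library. Each library was the only one of its group, and shallow vSMC limit what low genes can show.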
